A study of Mus musculus with 10 samples.

Results

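The genes described here are those whose symbol begins with Nduf, the name carried by most nuclear genes for subunits and assembly factors of respiratory complex I. A gene was taken where an array feature was annotated with that symbol alone, and its feature with the highest mean over the arrays stood for it. This gave 41 genes from 42 features, among 19661 genes measured in all. The arrays (Affymetrix Mouse Gene 1.0 ST) measured RNA from whole testis of 5 wild-type (WT) and 5 Crem-/- (KO) mice, with a separate array for each animal. The mice, on a 129Pas x C57Bl/J background in both groups, were 8 weeks old and untreated and were killed at 7 am, given in the labels as 0 h. In the KO line a neomycin resistance gene is inserted at the DNA-binding domains of Crem in every cell of the animal, so the disruption is not limited to germ cells. Arrays came from 4 labelled batches, whose nature the labels do not give. In batch 2 WT replicates 1, 2 and 3 were run with KO replicate 3, and in batch 4 WT replicate 5 with KO replicates 1, 4 and 5. KO replicate 2 was the single array of batch 1, and WT replicate 4 that of batch 3.

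Complex I takes electrons from NADH, passes them to ubiquinone and pumps protons across the inner mitochondrial membrane. It is an L-shaped assembly with a matrix arm, which holds the N module where NADH is oxidised and the Q module where ubiquinone is reduced, and a membrane arm with a proximal and a distal part. The catalytic core subunits are encoded partly in mitochondrial and partly in nuclear DNA, accessory subunits surround them, and assembly factors join the intermediates but are absent from the finished enzyme. In the testis, meiotic germ cells are known to rely strongly on mitochondrial respiration, and the product of Crem, a transcription factor of cAMP signalling, is most abundant in round spermatids.

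Crem itself was lower in KO testis, at 9.24 ± 0.15 against 10.95 ± 0.06 in WT (log2 level, mean ± SD, n = 5 each), a change of -1.71 ± 0.07 (SE, adjusted p = 3.0e-10). Pairs of arrays of a genotype correlated at an r of 0.9919 or above over all features, and pairs of different genotype at 0.9519 or below. The mean level of 5 spermatid markers lay between 12.74 and 13.06 in WT and between 7.26 and 9.81 in KO arrays, and 4 of the 5 were called lower. Of the other cell types of the testis, 4 of 5 spermatocyte markers, 4 of 4 macrophage markers and 3 of 4 Leydig cell markers were called higher, against 1 of 5 Sertoli cell, 1 of 3 endothelial and 1 of 3 peritubular myoid markers. Of 5 spermatogonial markers 2 were higher and 1 lower, and of all genes 31.1% were higher and 13.2% lower. Markers of epididymis were dim, with mean levels of 4.90 to 5.29 in WT and 4.75 to 4.85 in KO arrays. In whole testis, fewer cells of a type and less RNA per cell cannot be told apart, and the part of these shifts in the results below was not tested.

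Of the 41 Nduf genes, 18 were called slightly higher in KO testis, and 1 gene, Ndufa13, lay far below the rest. The difference of the group means was positive for 36 genes and negative for 5, where 12112 of all 19661 genes were positive, with a median of 0.17 and quartiles of 0.05 and 0.31 on the log2 scale. At an adjusted p under 0.05, 43.9% of the Nduf genes were called higher and 2 (4.88%) lower, while 21 were not called. Among all 19661 genes, 44.3% were called, 31.1% higher and 13.2% lower, with a median change of 0.07. When each array was centred on a list of housekeeping genes, 10 Nduf genes were higher and 4 lower, 25 differences were positive and the median was 0.08. Of all genes 18.6% were higher and 18% lower with that centring. With B2m, itself higher by 0.81, left out of that list, 18 Nduf genes were higher and 3 lower, 35 differences were positive and the median was 0.16. Of all genes 29.5% were then higher and 13% lower. The list was not stable without B2m either. Of its 10 measured genes, 3, with B2m among them, were called higher and 2 lower without centring. Genotype was unbalanced over batches, and with batch as a fixed block, which rests on batches 2 and 4, 13 were called higher and 1 lower. In that fit 26.3% of all genes were called higher and 12% lower. Ndufa6, Ndufaf2, Ndufb3, Ndufb5 and Ndufc2 then lost their calls, at differences of 0.17 to 0.30 and adjusted p of 0.0502 to 0.11. RNA quality also followed genotype. The paper gives RNA integrity numbers for as many adult mice of each genotype as there were arrays. Every KO number was slightly above every WT number, and every RNA concentration was lower in KO. The part of this in the shifts was not tested.

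Nduf genes are read at high levels on these arrays, at the median in the 83.4th percentile of all genes. Genes with a mean level between the quartiles of the Nduf levels, from 8.84 to 10.62, were therefore set beside them, a choice made after the values had been seen. Of these 3982 genes, 52.1% were called higher and 15.4% lower, 3037 differences were positive and the median change was 0.21. The share of Nduf genes called higher thus lay above that of all genes and below that of genes read at a like level. In 13 of the 41 Nduf genes every KO array exceeded every WT array, where 22.0% of all genes did so. In 1 every KO array was below, where 10.7% did, which makes 32.7% of all genes without overlap in either direction. Of the 3982 genes read at a like level, 1553 had every KO array above and 556 had every KO array below.

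By array, the Nduf genes and all genes were both shifted. The median over the 41 genes of an array's deviation from the WT mean was 0.17, 0.07, 0.18, 0.25 and 0.15 in KO replicates 1 to 5. The corresponding values in WT replicates 1 to 5 were -0.04, 0.01, -0.08, 0.04 and 0.04. The groups did not overlap, although KO replicate 2, the only array of batch 1, was close to the highest WT array. The same median over all genes was 0.07 to 0.09 in KO arrays and within 0.01 of 0 in WT arrays, also without overlap, and in KO replicate 2 it was 0.07, as for the Nduf genes. In batch 2 alone 36 differences were positive and in batch 4 alone 28 were, each with a single array in 1 of the groups.

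**Figure D1:**
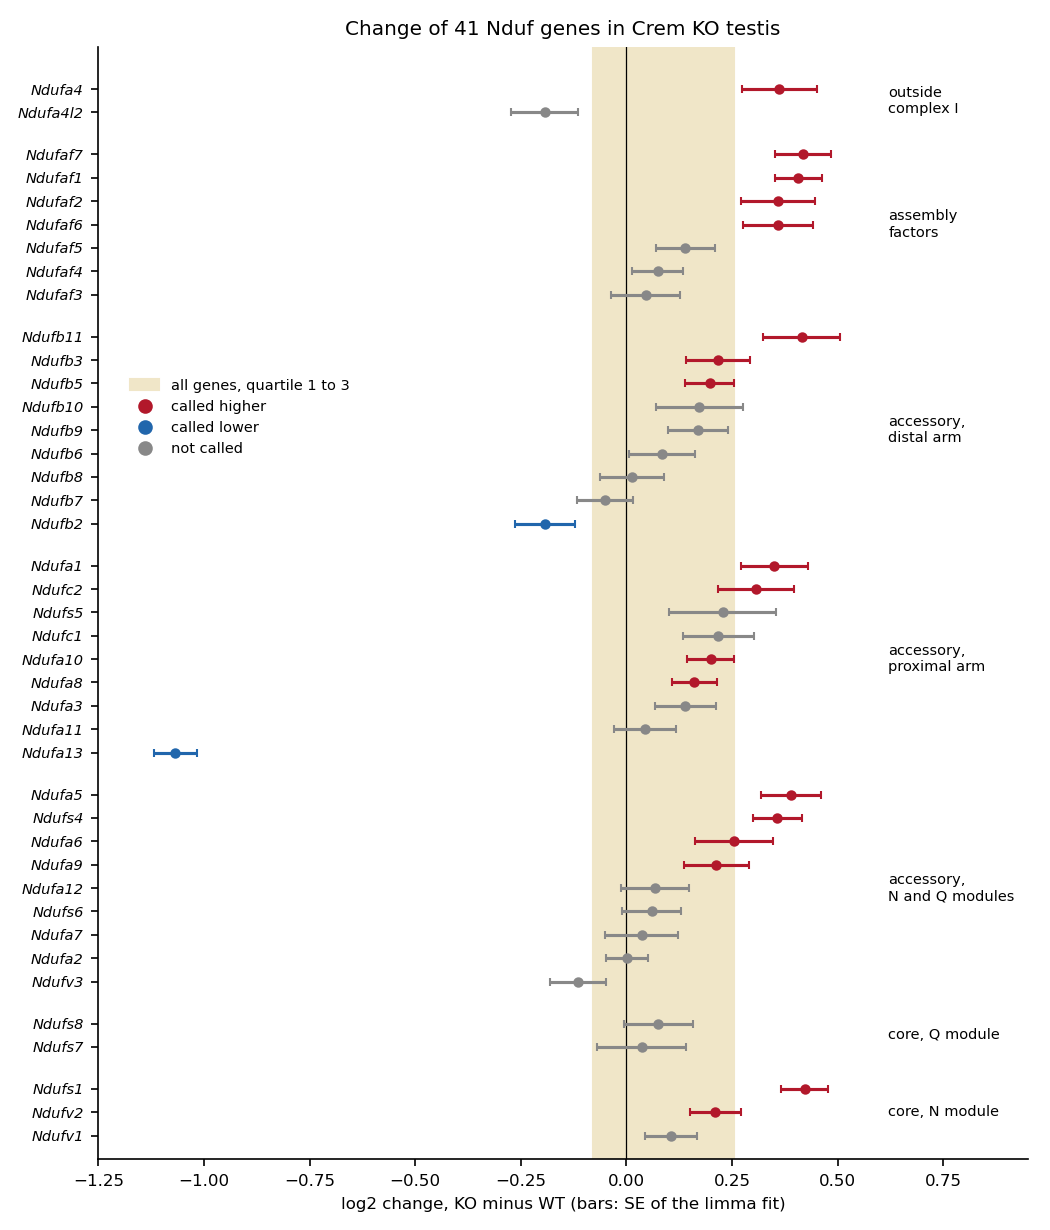
Difference of each of the 41 Nduf genes between KO and WT testis (horizontal axis, log2, with the SE of the limma fit as bars), grouped by place in complex I and ordered by size, with colour for the call at an adjusted p under 0.05 and a shaded band for the middle 50% of all genes. Ndufa13 stands at -1.07, and the others lie between -0.19 and 0.42.

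Ndufa13, also known as GRIM-19, encodes an accessory subunit of the proximal membrane arm that complex I needs in order to assemble. Its level in WT replicates 1 to 5 was 9.55, 9.49, 9.52, 9.52 and 9.46. In KO replicates 1 to 5 it was 8.40, 8.40, 8.49, 8.43 and 8.48. All KO arrays thus lay about 1 log2 unit below all WT arrays, and the spread within each group was among the narrowest of the Nduf genes. The difference was -1.07 ± 0.05 (SE), or 2.10-fold lower in KO, with an adjusted p of 9.0e-10. Ndufa13 was the only gene outside the fences set at 1.5 interquartile ranges beyond the quartiles of the Nduf changes, which lay at -0.35 and 0.70. Among all genes a fall at least as large was seen in 817 (4.16%). The difference was -1.03 in batch 2 alone and -1.02 in batch 4 alone, and the call held under each of the 22 refits.

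The Ndufa13 start site lies 164 bases from that of Tssk6, which is on the opposite strand of chromosome 8, and the genes are read away from each other. Tssk6 encodes a testis-specific serine kinase of spermatids that male fertility in the mouse requires. The level of Tssk6 in WT replicates 1 to 5 was 9.53, 9.53, 9.43, 9.70 and 9.70. In KO replicates 1 to 5 it was 5.82, 6.34, 6.33, 5.97 and 5.78, with the higher values in replicates 2 and 3, and no overlap with WT. The difference of -3.53 ± 0.11 (SE, adjusted p = 1.9e-11) was -3.17 in batch 2 alone and -3.84 in batch 4 alone. The other genes of the neighbourhood were not called, with differences of -0.33 for Yjefn3 (adjusted p = 0.0607), -0.13 for Gatad2a (adjusted p = 0.121) and -0.01 for Cilp2 (adjusted p = 0.953). These neighbours were looked up after the value of Ndufa13 had been seen.

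The sequence before the Ndufa13 start is shown because it holds the stretch between this start and that of Tssk6, and it runs on past the Tssk6 start into that gene. It is the RefSeq sequence (GRCm38.p6) of the 250 bases before the Ndufa13 start, chr8:69902021-69902270, minus strand, written 5′ to 3′ along Ndufa13. Capitals mark CGTCA, which is the short cAMP response site TGACG read on the other strand.
Ndufa13: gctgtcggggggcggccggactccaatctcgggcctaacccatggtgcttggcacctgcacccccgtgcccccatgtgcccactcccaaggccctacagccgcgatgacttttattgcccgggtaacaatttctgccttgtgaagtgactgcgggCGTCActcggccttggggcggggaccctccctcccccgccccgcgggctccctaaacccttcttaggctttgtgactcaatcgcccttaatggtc
The site begins 95 bases before the Ndufa13 start and, read along Tssk6, 73 bases before the Tssk6 start. It was the only copy in the RefSeq windows of both genes, which run from 250 bases before to 50 after a start and overlap by 263 bases. A match of letters is a description of the sequence, and binding was not measured on these arrays. The paper that reported them lists Tssk6 as lower in KO testis and as bound by CREM in a published testis ChIP-seq set. It names Tssk6 as a potential new target of Crem. What such binding means for Ndufa13 was not tested.

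The same search was made for every Nduf gene. Of the 36 genes with a RefSeq promoter window, 10 had a start on the opposite strand facing away within 1000 bases, and for 9 of them the neighbour was measured. Of these 9 neighbours, 6 were called higher, 1 lower and 2 were not called, where 31.1% of all genes were higher and 13.2% lower. Tssk6 was the neighbour that fell. Ndufa5 and its neighbour Asb15 differed by 0.39 and 1.13, and Ndufa4 and its neighbour Phf14 by 0.36 and 0.72, all called higher. Ndufb5, at 0.20, was called higher beside Mrpl47, at -0.14 and not called. The remaining pairs involved Ndufa11, Ndufa8, Ndufaf2, Ndufaf5 and Ndufb3, with neighbour differences from 0.05 to 0.51.

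**Figure D2:**
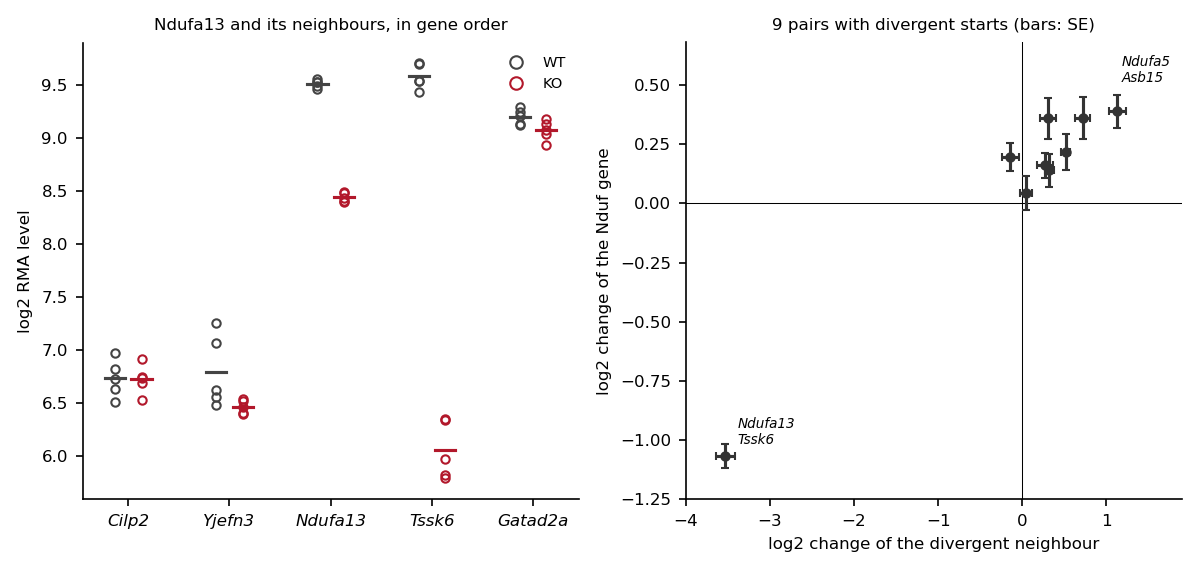
Left, log2 level of Ndufa13 and the genes around it in each array (points) with group means (lines), WT in grey and KO in red. Right, log2 difference of a Nduf gene (vertical axis) against that of its divergent neighbour (horizontal axis) for 9 pairs, with SE bars, where Ndufa13 with Tssk6 is the only pair with both below 0.

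The core subunits encoded in the nucleus were represented by 5 genes, of which 2 were called higher and none lower. Of all genes 31.1% were called higher, and of genes between the quartiles of the Nduf levels, 8.84 to 10.62, 52.1%. Ndufs1, Ndufv1 and Ndufv2 lay above that band, at mean levels of 10.87, 10.66 and 11.70, so it is not matched to the core subunits. Ndufs1, an iron-sulfur subunit of the N module, had the largest rise of all 41 genes. Its level was 10.62, 10.64, 10.62, 10.72 and 10.69 in WT replicates 1 to 5 and 11.10, 10.99, 11.03, 11.18 and 11.10 in KO replicates 1 to 5. No KO array overlapped a WT array, and the difference was 0.42 ± 0.06 (SE, 1.34-fold, adjusted p = 4.3e-05). Ndufv2, another iron-sulfur subunit of the N module, had the highest mean level of the Nduf genes. It read 11.56, 11.69, 11.50, 11.66 and 11.54 in WT and 11.78, 11.71, 11.87, 11.89 and 11.76 in KO replicates. The groups again did not overlap, by a small margin, and the difference was 0.21 ± 0.06 (SE, adjusted p = 0.0133). Ndufv1, which binds the flavin that accepts electrons from NADH, differed by 0.11 (adjusted p = 0.20), and Ndufs8 and Ndufs7 of the Q module by 0.08 and 0.04 (adjusted p = 0.512 and 0.828).

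Of 27 accessory subunits, 11 (40.7%) were called higher and 2 (7.41%) lower. The shares were 31.1% and 13.2% of all genes, and 52.1% and 15.4% of genes between the quartiles of the levels of all Nduf genes. In the N and Q modules 4 of 9 were called higher, namely Ndufa5, Ndufs4, Ndufa6 and Ndufa9. Ndufa5, an accessory subunit of the matrix arm, read 9.93, 10.01, 10.19, 9.80 and 9.95 in WT and 10.28, 10.38, 10.39, 10.41 and 10.35 in KO replicates. The KO arrays lay close together and above all WT arrays, with a difference of 0.39 ± 0.07 (SE, adjusted p = 0.000620). Ndufs4, whose loss causes Leigh-like disease in mice, differed by 0.36 ± 0.06 (SE, adjusted p = 0.000263). Ndufa6 and Ndufa9 differed by 0.26 and 0.21, with overlapping groups. Their calls were lost in 7 and 8 of the 10 fits that left out 1 array, and held without KO replicate 2, where the differences were largest at 0.33 and 0.28, and without WT replicate 5, Ndufa6 also without KO replicate 3.

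In the proximal membrane arm 4 of 9 accessory subunits were called higher, where 31.1% of all genes were higher and 13.2% lower. These were Ndufa1, Ndufc2, Ndufa10 and Ndufa8, with differences of 0.35, 0.31, 0.20 and 0.16. The call of Ndufa8 was lost without WT replicate 1 or 5 or KO replicate 3 or 4, with differences of 0.14 to 0.17 over the 10 fits. Ndufa13 belongs to the same group of 9 and was its only fall. In the distal membrane arm 3 of 9 were called higher and 1 lower. Ndufb11, 1 of 2 X-linked Nduf genes with Ndufa1, read 8.03, 8.01, 7.78, 8.24 and 7.96 in WT and 8.47, 8.18, 8.57, 8.39 and 8.50 in KO replicates. WT replicate 4 exceeded KO replicate 2, so the groups overlapped, and the difference was 0.42 ± 0.09 (SE, adjusted p = 0.00246). Ndufb3 and Ndufb5 differed by 0.22 and 0.20 and were called higher as well. Ndufb3 lost its call without KO replicate 1, 3 or 4 or WT replicate 1, 2 or 3, at differences of 0.17 to 0.26 over the 10 fits. With Ndufa13 and Ndufs1, Ndufb11 was 1 of the 3 Nduf genes whose call held under each of the 22 refits.

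Ndufb2, a small accessory subunit of the distal arm, was the second gene called lower. It read 7.46, 7.61, 7.50, 7.60 and 7.72 in WT and 7.35, 7.21, 7.44, 7.51 and 7.42 in KO replicates. KO replicate 4 exceeded WT replicates 1 and 3, and the difference was -0.19 ± 0.07 (SE, adjusted p = 0.0449). Ndufb2 was called in 3 of the 10 fits that left out 1 array, those without WT replicate 1, WT replicate 3 or KO replicate 4, and in 5 of 12 other refits. Over the 10 fits its difference ran from -0.22 to -0.15. Without KO replicates 2 and 3 it was -0.15.

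**Figure D3:**
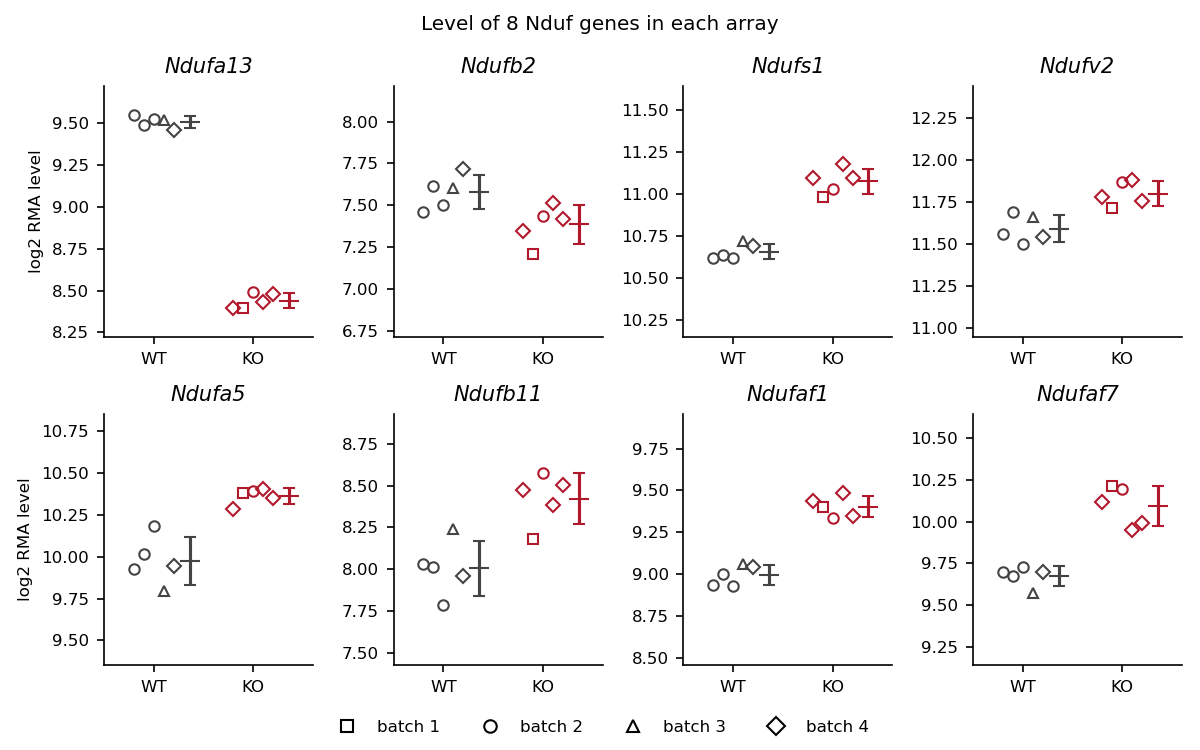
Log2 level of 8 Nduf genes in each of the 10 arrays, WT in grey and KO in red, with a symbol for each batch and the mean ± SD of each group beside the points, on axes that all span 1.5 log2 units. Ndufa13 falls from 9.51 to 8.44 with narrow groups, Ndufb2 and Ndufb11 overlap between genotypes, and the other 5 genes are higher in all KO arrays.

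Assembly factors with a Nduf symbol were higher in 4 of 7 cases (57.1%) and lower in none, with a median difference of 0.36. Of all genes 31.1% were called higher, and of genes between the quartiles of the Nduf levels, 8.84 to 10.62, 52.1%. That band is not matched to these factors. Ndufaf3 lay above it at a mean level of 11.56, and Ndufaf4, Ndufaf5 and Ndufaf6 below it at 7.63, 6.82 and 5.76. Ndufaf7 is a methyltransferase that acts early in assembly. It read 9.70, 9.68, 9.73, 9.57 and 9.70 in WT and 10.12, 10.21, 10.20, 9.95 and 9.99 in KO replicates, without overlap. The difference was 0.42 ± 0.07 (SE, adjusted p = 0.000200). Ndufaf1, which acts on the membrane arm, read 8.93, 9.00, 8.93, 9.06 and 9.04 in WT and 9.44, 9.40, 9.34, 9.49 and 9.35 in KO replicates. All KO arrays were higher, by 0.41 ± 0.06 on average (SE, adjusted p = 6.0e-05).

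Ndufaf2, a chaperone of late assembly, read 9.93, 10.14, 9.88, 9.88 and 10.11 in WT and 10.52, 10.19, 10.25, 10.55 and 10.23 in KO replicates. The gap between the groups was narrow, and the difference was 0.36 ± 0.09 (SE, adjusted p = 0.00490). Ndufaf6, which is needed for the making of a mitochondrially encoded core subunit, had the lowest mean level of the Nduf genes. Its WT replicates read 5.56, 5.49, 5.49, 5.75 and 5.62 and its KO replicates 6.08, 5.76, 5.78, 5.98 and 6.11. KO replicate 2 lay just above WT replicate 4, and the difference was 0.36 ± 0.08 (SE, adjusted p = 0.00367). Ndufaf5, Ndufaf4 and Ndufaf3 differed by 0.14, 0.07 and 0.05 and were not called.

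Assembly factors with other names were taken from a list of 11 genes, of which 10 were measured. Of these, 4 were called higher and 2 lower, where 31.1% of all genes were higher and 13.2% lower. Ecsit, which works with Ndufaf1 and Acad9 on the membrane arm, was at 9.06 ± 0.09 in WT and 8.34 ± 0.18 in KO (SD, n = 5 each). Its difference of -0.72 ± 0.08 (SE, adjusted p = 1.2e-05) was -0.73 in batch 2 alone and -0.58 in batch 4 alone. Acad9 and Tmem126b, which share a complex with Ecsit and Ndufaf1, differed in the other direction, by 0.35 and 0.32. Foxred1 was lower by -0.27 ± 0.08, Nubpl, which delivers iron-sulfur clusters, was higher by 0.67 ± 0.12, and Dmac1 of the distal arm was higher by 0.32 ± 0.11 (SE each).

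A pair of genes carry the name but are not subunits of complex I. Ndufa4, now counted as a subunit of complex IV, read 9.64, 9.64, 9.41, 9.52 and 9.44 in WT and 9.83, 9.67, 10.16, 9.82 and 9.99 in KO replicates. All KO arrays were higher, KO replicate 2 by little, and the difference was 0.36 ± 0.09 (SE, adjusted p = 0.00524). Ndufa4l2, a relative of Ndufa4 known as a hypoxia-inducible gene, read 7.71, 7.88, 7.66, 7.82 and 7.69 in WT and 7.50, 7.36, 7.60, 7.79 and 7.54 in KO replicates. The groups overlapped, and the difference of -0.19 ± 0.08 was not called (SE, adjusted p = 0.0692).

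Among the 21 genes that were not called, differences ran from -0.19 for Ndufa4l2 to 0.23 for Ndufs5. Ndufc1, the only Nduf gene with more than 1 feature, differed by 0.22 (adjusted p = 0.0538) and, on its dimmer feature, by 0.19 (adjusted p = 0.0533). The brighter Ndufc1 feature read 10.80, 10.87, 10.98, 10.84 and 11.17 in WT and 11.10, 10.98, 11.15, 11.35 and 11.18 in KO replicates, where WT replicate 5 overlapped the KO range. Ndufs5 had the widest WT group, from 9.04 to 9.95, and Ndufb10 the next, with SDs of 0.33 and 0.26 against a median WT SD of 0.10 over the Nduf genes. A gene that was not called may still differ, since the median SE of a Nduf difference was 0.07.

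The cAMP response element, to which factors of the CREB and CREM family bind, was counted in the RefSeq windows of 36 Nduf genes and of 27025 genes in all. The full palindromic element TGACGTCA was found in 3 Nduf genes (8.33%) and in 2.03% of all genes. Its short form TGACG, searched on both strands and contained in every full element, was found in 16 Nduf genes (44.4%) and in 23.0% of all genes. Of the Nduf genes with a window, 8 of 16 called higher, 6 of 18 not called and 2 of 2 called lower held the short form. The genes with a full element are shown because their calls differed, with the 250 bases before the start from RefSeq (GRCm38.p6) written 5′ to 3′ along each gene and the full element in capitals. Ndufa10 lies at chr1:92473759-92474008, minus strand, Ndufa11 at chr17:56717512-56717761, plus strand, and Ndufb2 at chr6:39592315-39592564, plus strand.
Ndufa10: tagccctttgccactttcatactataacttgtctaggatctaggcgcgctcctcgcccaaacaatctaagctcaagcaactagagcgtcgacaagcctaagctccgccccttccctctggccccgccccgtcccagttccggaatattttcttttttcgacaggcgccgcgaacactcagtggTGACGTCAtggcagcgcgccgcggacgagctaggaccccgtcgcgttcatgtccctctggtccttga
Ndufa11: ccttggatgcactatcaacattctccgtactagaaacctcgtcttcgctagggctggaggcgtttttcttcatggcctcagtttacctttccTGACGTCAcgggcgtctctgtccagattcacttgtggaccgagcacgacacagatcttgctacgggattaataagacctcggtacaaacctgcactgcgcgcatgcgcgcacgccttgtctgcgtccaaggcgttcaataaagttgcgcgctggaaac
Ndufb2: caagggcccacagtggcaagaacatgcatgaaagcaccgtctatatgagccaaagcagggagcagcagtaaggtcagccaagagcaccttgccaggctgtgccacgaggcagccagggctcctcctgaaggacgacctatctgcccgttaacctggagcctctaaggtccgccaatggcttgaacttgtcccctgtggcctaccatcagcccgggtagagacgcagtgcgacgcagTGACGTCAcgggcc
The element began 67 bases before the start in Ndufa10, which was called higher at 0.20, 158 bases before it in Ndufa11, which was not called at 0.04, and 14 bases before it in Ndufb2, called lower at -0.19. Letters of the NRF1 site, CGCATGCG, were found in 4 Nduf windows (11.1%, against 2.07% of all genes), those of Ndufa8, called higher, and of Ndufa11, Ndufaf4 and Ndufaf5, not called. Letters of the ETS site of GABPA, CCGGAAGT, were found in 0 of 36 Nduf windows and in 4.31% of all genes. These 4 searches on both strands were chosen after the values had been seen. The 27025 genes were not limited to those measured on the arrays and not matched to the Nduf windows in base composition. The part of this in the shares was not tested. A longer form of the NRF1 site was searched first and then replaced by the letters given.

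Genes of the other respiratory complexes were called higher or not called, and the lists differed in their medians. Of 46 measured genes of complexes II to V and cytochrome c, 20 (43.5%, against 31.1% of all genes) were called higher and none lower. Their median was 0.17, set beside 0.17 for the Nduf genes with no test of a difference. They too were read at high levels, at the median in the 88.7th percentile. Genes between the quartiles of the Nduf levels were called higher in 52.1% of cases, with a median of 0.21. The medians were 0.23 for complex II, 0.20 for complex III with cytochrome c, 0.09 for complex IV and 0.16 for complex V. In complex II, 5 of 8 were higher, led by Sdhaf4, Sdhaf1 and Sdha at 0.46, 0.36 and 0.32. In complex III with cytochrome c, 5 of 10 were higher, led by the testis-specific cytochrome c gene Cyct, Cyc1 and Uqcrh at 0.36, 0.33 and 0.32. In complex IV, 5 of 16 were higher, led by Cox7a1, Cox7b and Cox6b1 at 0.44, 0.44 and 0.38. In complex V, 5 of 12 were higher, led by Atp5g3, Atpif1 and Atp5a1 at 0.28, 0.26 and 0.25.

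Regulators of mitochondrial DNA and of nuclear respiratory genes were split, with 3 of 12 lower and 4 higher. Of all genes 13.2% were lower and 31.1% higher. Tfam, which packages mitochondrial DNA and drives its transcription, was at 10.28 ± 0.17 in WT and 7.27 ± 0.19 in KO (SD, n = 5 each). Its difference of -3.02 ± 0.10 (SE, adjusted p = 2.4e-11) was -2.83 in batch 2 alone and -3.11 in batch 4 alone. Isoforms of Tfam are not separated on these arrays, so the values do not tell which of them fell. Tfb1m, a methyltransferase of mitochondrial ribosomal RNA, was lower by -1.18 ± 0.08, and Gabpb1, a subunit of the factor GABP, by -0.74 ± 0.06 (SE each). Nrf1, a transcription factor of nuclear respiratory genes, was higher by 0.54 ± 0.09, followed by Polg, Twnk and Gabpa at 0.38, 0.34 and 0.30.

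**Figure D4:**
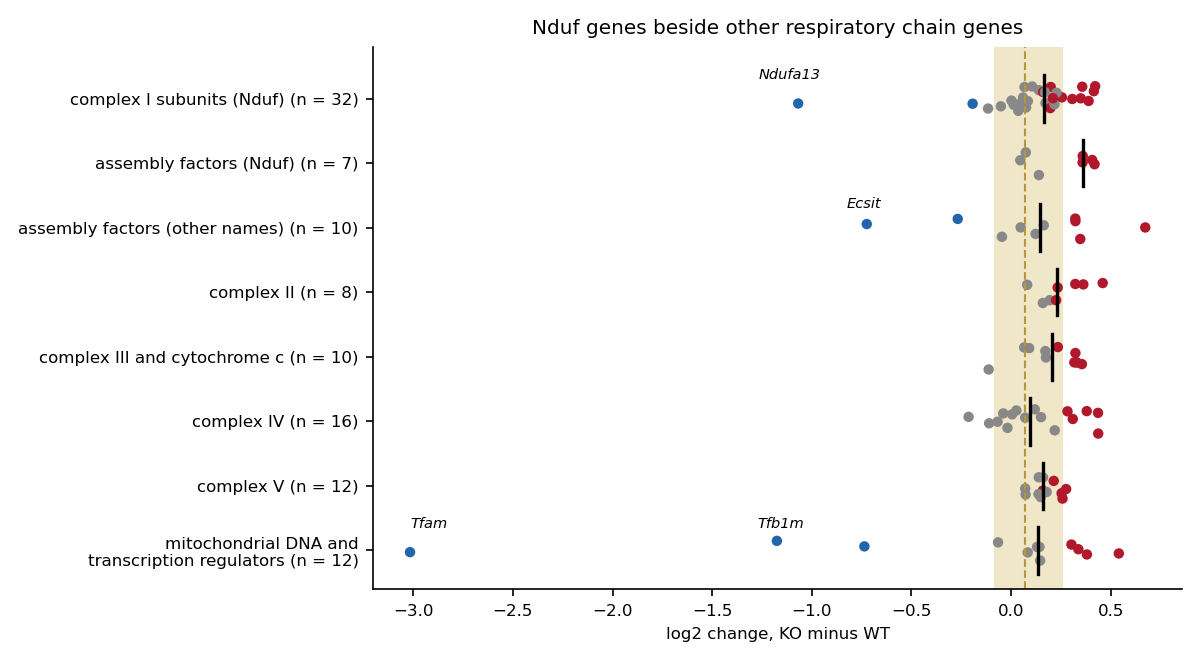
Log2 difference between KO and WT testis for each gene of complex I, its assembly factors, the other respiratory complexes and regulators of mitochondrial gene expression, with red for called higher, blue for called lower and grey for not called. Black bars give each list's median, the shaded band and dashed line the middle 50% and the median of all genes, and Ndufa13 at -1.07 is the only subunit of complexes I to V below -0.35.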

How the data were processed

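Whole testis RNA of 5 WT and 5 KO mice was measured on 1 array each. Normalisation by the authors used RMA (XPS package), with core transcript annotation, antigenomic background and probes grouped per transcript. The deposited values are log2 expression levels between 2.74 and 14.57. The package version and the annotation build are not given in the sources used here. The table has 35557 rows, 9868 of them without a value, and the 25689 others entered the fit. Features were named through the platform annotation and updated to RefSeq symbols (GRCm38.p6). There were 20777 features with 1 symbol (20696 matched to RefSeq), 232 with several and 4680 without. Of 49 protein-coding Nduf genes in RefSeq, the 8 others were not analysed here. Probes of a transcript are averaged, so isoforms are not separated and near-identical copies can share signal.

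The 2 genotypes were compared by limma 3.58.1 under R 4.3.3, with lmFit, eBayes, two-sided p values and no covariate. Benjamini-Hochberg adjustment ran over the 25689 features, and an adjusted p under 0.05 counted as called. Differences are KO minus WT, and the p values rest on 5 mice per group. The number of arrays limits the precision. The script was tested on simulated data. Full values were given by rule for genes outside the fences of the Nduf changes, the 8 largest called rises and falls, genes with features that disagree, the highest and lowest level, and Ndufa4 and Ndufa4l2. No Nduf gene had features that disagree, and Ndufc1, with 2 features, is shown on that account. In other lists the 3 largest differences and the called assembly factors were named. Members and lists were chosen with earlier results of these data known. The alternatives were further quantile normalisation, centring on the array median or on a housekeeping list with or without B2m, batch as a fixed or random block or batches 2 and 4 alone, trend and robust settings, array weights, removal of the lowest 25% of features, the mean of all features, platform symbols, and leaving out each array or both KO replicates 2 and 3. The background of genes at a like level, the neighbour and motif searches, and the values of Tssk6, Tfam and Ecsit in single batches were added after the data were seen.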

Additional observations from a re-analysis of the deposited data

Results flagged for a closer look

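Among the 84 groups of 5 arrays examined, covering the Nduf features in WT and in KO, 2 held an array whose gap to the nearest other array exceeded Dixon's 95% critical value of 0.71 as a share of the group's range, and chance alone flags about 1 group in 20. Ndufb5 read 11.41 in KO replicate 4, above the 11.33 to 11.34 of the other KO arrays. Ndufs7 read 9.475 in KO replicate 2, the only array of batch 1, below the 9.942 to 10.06 of the other KO arrays.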

How the results depend on the processing

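The count of Nduf genes called higher (18) fell to 10 with housekeeping centring, where 4 were lower, the median was 0.0809 and that of all genes -0.02. Of all genes 18.6% were higher and 18% lower with that centring. With B2m left out of the list the Nduf count was 18, with 3 lower, a median of 0.16 and 0.06 for all genes. Of all genes 29.5% were then higher and 13% lower. With batch as a fixed block the Nduf count was 13, where 26.3% of all genes were higher. The count fell to 4 in batch 2 alone and 3 in batch 4 alone, where few of all genes were called higher too (11.2% and 9.67%) and the test had a single array in 1 of the groups. The 2 lower calls became 1, Ndufa13, with array-median centring, batch as a fixed block, batch 2 or batch 4 alone, trend and robust settings, array weights, and without both KO replicates 2 and 3. Leaving out each array in turn gave 14 to 21 genes higher, 1 to 3 lower and a median of 0.13 to 0.18. Over those 10 fits 27.4% to 33.4% of all genes were called higher and 12.1% to 13.9% lower. The Crem difference ran from -1.80 to -1.55 and was called throughout. Every called rise kept its direction in all refits, and 14 of 18 kept their call in all 10 fits without 1 array. Ndufa13 ranged from -1.16 to -1.02. No paired analysis was possible because the replicate numbers follow the order of deposition and pair no animals.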
